A study of Homo sapiens with 4 samples.

Results

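SLC7A5 encodes LAT1, the light chain of the system L exchanger that carries large neutral amino acids such as leucine across the plasma membrane. It is described here by its m7G peaks, stretches of mRNA that the authors called as enriched after immunoprecipitation (IP) with an antibody against N7-methylguanosine. The gene had 7 of the 3355 peaks of IP replicate 1 and 7 of the 4747 peaks of IP replicate 2, 14 of 8102 in all. Its members are the entries of both lists named SLC7A5. The gene was chosen by its number of called peaks in these same lists, so that number, the folds and the recurrence are given as a description, without a test. The samples were untreated HepG2 cells, a human hepatocellular carcinoma line grown in DMEM with fetal bovine serum. Poly(A) RNA was sequenced as 2 input samples and 2 m7G IP samples from stranded libraries. Only the IP samples' peak lists were analysed here, and separate cultures are not stated. Read depth is unknown from these lists, and no interval can be given for the fold of a single peak.

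LAT1 works only as a heterodimer with the glycoprotein heavy chain encoded by SLC3A2, which brings it to the cell surface. It exchanges intracellular glutamine for extracellular leucine and other essential amino acids. Leucine is sensed by Sestrin proteins upstream of mTORC1, and amino acid shortage raises ATF4, a transcription factor that activates many transporter genes. LAT1 is low in the normal adult liver and higher in many liver cancers. In mRNA, m7G is best known as the 5' cap, and it also occurs as an internal modification.

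The liver label was set against peaks in marker genes, which need expression to be seen. Of 18 hepatocyte and hepatoma markers, 8 had a peak in both lists, among them APOA1, APOB, SERPINA1 and FOXA2. The other 10, among them ALB, AFP, TTR and HNF4A, had none in either. Of 6 immune markers, 2 (CD68 and LYZ) had a peak in both lists, and of 7 fibroblast, stellate and endothelial markers, 1 (ACTA2). Median folds in replicates 1 and 2 were 1.42 and 1.44 for peaks of the hepatocyte and hepatoma markers. They were higher for the immune markers (5.44 and 3.16, from 2 peaks in each list) and for ACTA2 (3.69 and 2.74, from 1 peak in each). FOXA3, a hepatocyte marker with peaks in both lists, had higher top folds than these, 18.5 and 8.43. Every marker with a peak in either list thus had one in both, where 51.7% of all genes with a peak did. These counts are of enriched mRNAs and not of expression levels, so they do not test the label.

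The gene lies on chromosome 16 of GRCh38 from 87830023 to 87869507 and is transcribed from the minus strand, so its 5' end is the higher coordinate. The peak at this end had the same limits in both lists, chr16:87869195-87869494, and started 13 nt inside the annotated gene start. The first 30 bases of this peak are shown because it had the highest fold of the gene in both lists. SLC7A1, which encodes the cationic amino acid transporter CAT1 of the same family, is set beside it as the other SLC7 gene with a peak at its 5' end in both lists. Both stretches come from the RefSeq promoter table (GRCh38.p14), are written 5' to 3' on the strand of the gene, and have guanines, the base that carries m7G, in capitals. They lie at chr16:87869465-87869494 and chr13:29595659-29595688, both on the minus strand.
SLC7A5: cGGcGGGcGGcGcGcacactGctcGctGGG
SLC7A1: GcactGctGatGaaacctGGcGccGGaacc

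The SLC7A5 stretch held 14 guanines and 11 cytosines, a GC content of 83.3%. Across the 22199 windows of protein-coding genes at the same distance from the gene start, the median was 10 guanines and 66.7% GC. As many or more guanines were found in 20.0% of windows, and 9.03% had a GC content as high. The SLC7A1 stretch held 9 guanines and 10 cytosines (63.3% GC). The base composition is a property of the reference sequence and does not place a modified base. The remaining bases of the peaks were not analysed here.

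All SLC7A5 peaks of replicate 1, and all but 1 of replicate 2, fell into 3 zones of the gene. A 300 nt peak stood at the 5' end, a spliced peak ended 32933 nt downstream of the gene start, and a row of unspliced peaks filled the last 3000 nt. Replicate 1 had 5 peaks within 3000 nt of the 3' end and replicate 2 had 4. These held 902 of the 1472 peak bases of replicate 1 (61.3%) and 870 of the 1769 of replicate 2 (49.2%). The row was not continuous, since neighbouring peaks in it were at least 178 nt apart in replicate 1 and 208 nt in replicate 2. Distances are genomic, and no exon or UTR models were used, so no peak is assigned to coding sequence or UTR.

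**Figure D1:**
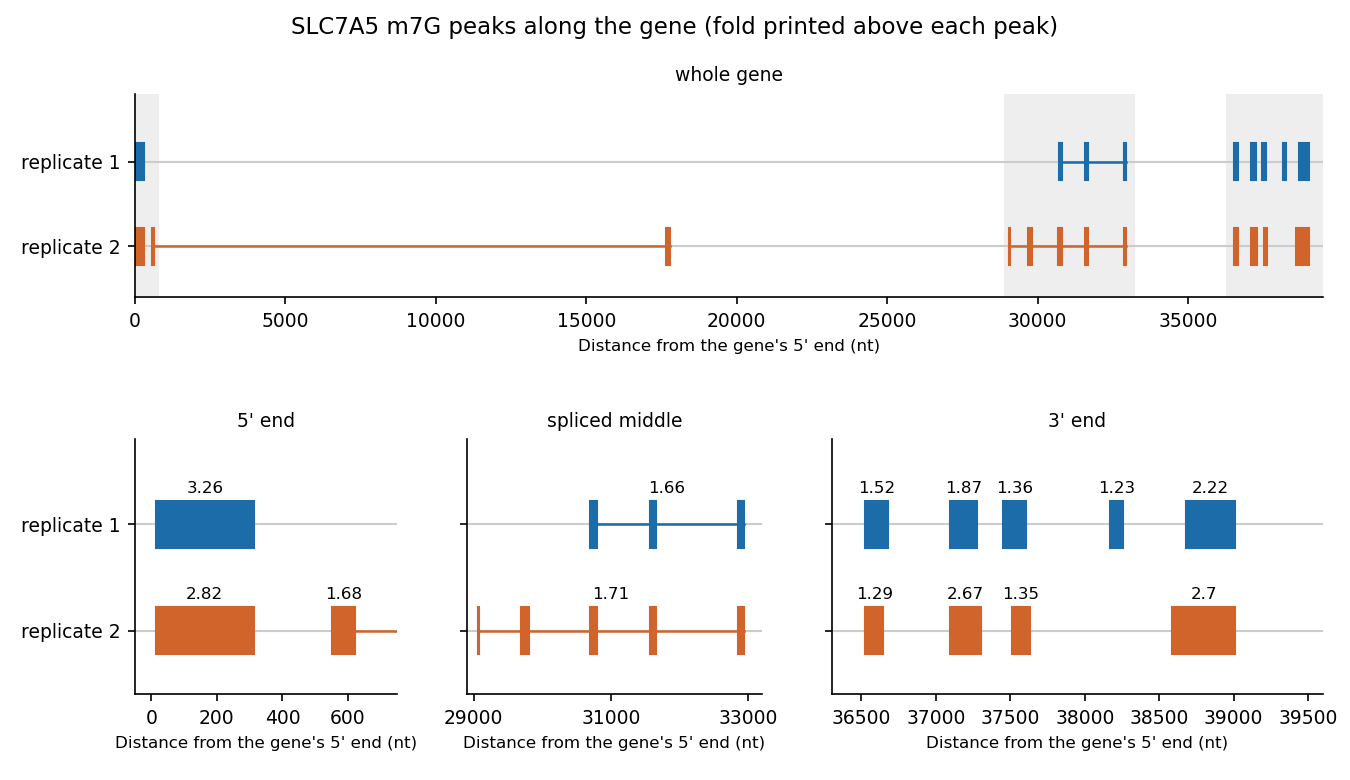
Peaks of SLC7A5 in replicate 1 (blue) and replicate 2 (orange) by genomic distance from the gene's 5' end in nt. Boxes are peak blocks, lines join blocks of 1 spliced peak, numbers are folds, and the lower panels enlarge the shaded zones; the upper panel shows a 5' end peak with the same limits in both lists, and a peak of replicate 2 that reaches across the long intron.

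The 5' end peak had a fold of 3.26 in replicate 1 and 2.82 in replicate 2, a mean of 3.04 ± 0.31 (SD, n = 2). Its -log10 p was 25.3 in replicate 1 and 24.2 in replicate 2. It thus ranked first in the gene by fold in both lists. Of the 2128 peaks shared by the lists over all genes, 10.3% had both limits identical, as this one did. Among all peaks with a midpoint within 200 nt of the gene's 5' end, its fold was a low one. The median of the 887 such peaks was 4.85 in replicate 1, where 25.8% had a lower fold than SLC7A5. In replicate 2 the median of 995 peaks was 4.87, and 17.1% had a lower fold.

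Downstream of it, replicate 2 alone had a peak of 2 blocks joined across an intron of 17035 nt. Its first block, 72 nt from 87868885 to 87868956, began 238 nt beyond the 5' end peak, and its second block covered 108 nt from 87851742 to 87851849. The fold was 1.68 and the -log10 p 5.36. Of the 1338 spliced peaks of replicate 2, 10.8% joined blocks across a longer intron, and the median of the longest intron was 1397.5 nt. Replicate 1 had no SLC7A5 peak at these blocks.

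The spliced peak of the second zone occurred in both lists and ended at the same base, 87836574, on its 3' side. In replicate 1 it joined 3 blocks of 99, 97 and 74 nt, 270 nt in all, across introns of 772 and 1197 nt. In replicate 2 it joined 5 blocks of 20, 124, 104, 97 and 74 nt, 419 nt in all. The replicate 2 peak therefore contained the whole replicate 1 peak and reached further toward the 5' end. The folds were 1.66 and 1.71 (mean 1.69 ± 0.035 SD, n = 2). Peaks of 5 or more blocks made up 0.485% of replicate 2, 23 of its peaks. The 74 nt block lies within the span of SLC7A5-AS1, an annotated antisense RNA from 87836265 to 87837687. The libraries were stranded, but how the authors' counting used strand is not given in the sources used here.

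In the 3' zone, the site with the highest fold in both lists was the one nearest the gene's 3' end. It began at 87830501 in both lists, 478 nt from that end, and ran to 87830830 in replicate 1 (330 nt) and 87830919 in replicate 2 (419 nt). Its folds were 2.22 and 2.70 (mean 2.46 ± 0.34 SD, n = 2), with a -log10 p of 13.3 and 21.5. It ranked second in the gene by fold in both lists.

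The site ending at 87832414 in both lists, 2391 nt from the 3' end, differed most between the lists in fold and in p. Its fold was 1.87 in replicate 1 and 2.67 in replicate 2 (mean 2.27 ± 0.57 SD, n = 2). Its -log10 p was 8.68 in replicate 1 and 26.8 in replicate 2, the strongest p of SLC7A5 in that list. The replicate 2 peak was 211 nt long against 181 nt and extended 30 nt further toward the 3' end.

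The other 2 sites of this zone that recurred had low folds in both lists. The one ending at 87832981 had folds of 1.52 and 1.29 (SD 0.16, n = 2), a -log10 p of 7.36 and 4.51, and lengths of 150 and 120 nt. The one from 87831906 to 87832055 in replicate 1 and from 87831876 to 87831995 in replicate 2 had folds of 1.36 and 1.35, with a -log10 p of 6.4 and 7.27. It was the only shared site of the gene without a common limit, with 90 nt shared. Replicate 1 had a further peak of 91 nt from 87831248 to 87831338, with the lowest fold of the gene (1.23) and a -log10 p of 3.40, and no partner in replicate 2.

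**Figure D2:**
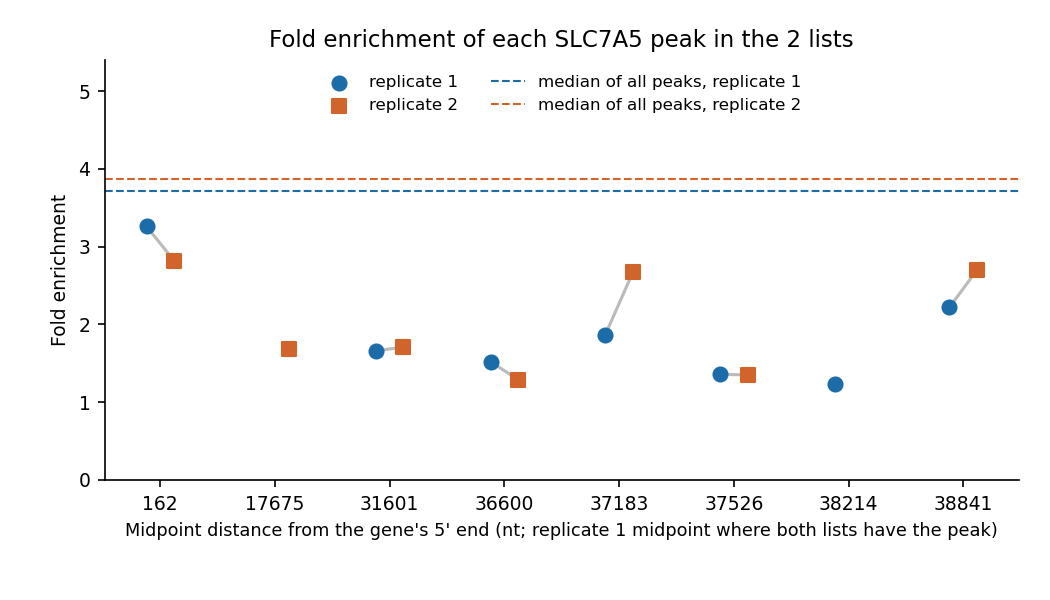
Fold enrichment of every SLC7A5 peak in replicate 1 (blue circles) and replicate 2 (orange squares), ordered along the gene by midpoint distance from the 5' end in nt, with a line joining the lists at shared sites. Dashed lines are the medians of all peaks, 3.71 and 3.87; every SLC7A5 peak lies below them, and the sites at 162 and 38841 nt are the highest of replicate 1.

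Recurrence was counted next. A peak had a partner when a peak of the same gene and strand in the other list overlapped it by at least 50% of the shorter peak. Of the SLC7A5 peaks, 6 of 7 in replicate 1 and 6 of 7 in replicate 2 had a partner. Over all genes, 65.1% of replicate 1 peaks and 45.4% of replicate 2 peaks had one. With 80% reciprocal overlap, 3 of the 6 sites of SLC7A5 counted as shared. In bases, the peaks of both lists covered the same 1291 nt, which was 87.7% of the bases of replicate 1, 73.0% of those of replicate 2 and 66.2% of their union. Replicate 1 alone covered 181 nt and replicate 2 alone 478 nt.

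Limits recurred to the base at 5 of the 6 shared sites. The 5' end peak shared both limits, and 4 sites shared 1. Over all genes, 1065 of the 2128 shared peaks had at least 1 identical limit. Where single-block limits of SLC7A5 differed, the shifts were 30, 60 or 89 nt. All 14 lengths lay within 1 nt of a multiple of 30, from 91 nt to 419 nt. Over all genes, 93.2% of replicate 1 lengths and 94.6% of replicate 2 lengths lay within 2 nt of a multiple of 30. Shifts of under about 30 nt between the lists could therefore not be read from these limits.

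The order of the 6 shared sites by fold was the same at the top of both lists. The 5' end, the site nearest the 3' end, the site ending at 87832414 and the spliced peak took the first 4 places in both, and the other 2 sites exchanged places. The SD between the 6 site means was 0.667, against a pooled SD between replicates within a site of 0.31. No step between neighbours in this order exceeded that SD in both lists. The step from the 5' end to the next site exceeded it in replicate 1 (3.26 to 2.22) and not in replicate 2 (2.82 to 2.70). The step from the site ending at 87832414 to the spliced peak exceeded it in replicate 2 (2.67 to 1.71) and not in replicate 1 (1.87 to 1.66). Slightly above it were the step from 2.22 to 1.87 in replicate 1 (2.70 to 2.67 in replicate 2) and that below the spliced peak in replicate 2 (1.71 to 1.35, against 1.66 to 1.52 in replicate 1). The pooled SD is that of a single fold, and a step between 2 folds would vary more. The ratio of the replicate 2 to the replicate 1 fold ran from 0.849 to 1.43 over the sites, with 3 sites higher in replicate 2. The median ratio was 1.01 for SLC7A5 and 1.03 for all 2128 shared peaks. Only the site ending at 87832414 lay outside the quartiles of all shared peaks, 0.838 and 1.31.

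SLC7A5 peaks combined low folds with strong p-values, a combination also seen in the transporter genes SLC3A2 and SLC1A5 (values below). Folds ran from 1.23 to 3.26 in replicate 1, with a median of 1.66, and from 1.29 to 2.82 in replicate 2, with a median of 1.71. The medians of all peaks were 3.71 and 3.87, and every one of the gene's 14 peaks lay below them. The lowest folds stood near the bottom of their lists, with 1.43% of replicate 1 folds below 1.23 and 1.24% of replicate 2 folds below 1.29. The median -log10 p was 8.68 in replicate 1 and 20.5 in replicate 2, against 5.50 and 5.07 for all peaks. In each list, 6 of the 7 peaks lay above the list's median. Among all peaks with folds no higher than the highest of SLC7A5, 1383 in replicate 1 and 1365 in replicate 2, the median -log10 p was 5.56 and 5.07. Input levels, which bear on the p of a peak at a given fold, were not analysed here.

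**Figure D3:**
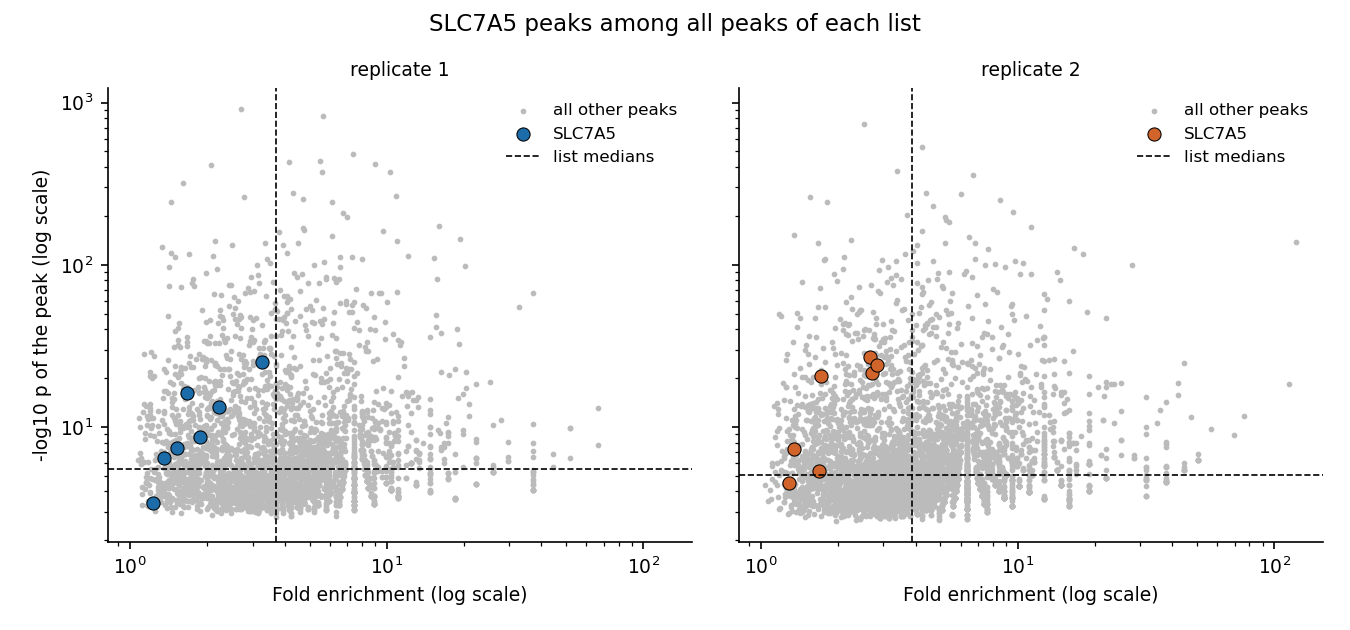
Fold enrichment (log axis) against -log10 p (log axis) for all peaks of replicate 1 (left) and replicate 2 (right), with SLC7A5 peaks as large points and the list medians as dashed lines. All SLC7A5 points lie left of the median fold, and 6 of 7 in each list lie above the median -log10 p.

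Few genes carried as many peaks. Of 2511 genes with a peak in replicate 1, 76.1% had 1 peak, and SLC7A5 and the complement gene C3 had the most, 7 each. Of 3205 genes in replicate 2, 69.8% had 1 peak, 11 genes had at least 7, and 3 had more. SLC7A5 had 6 shared peaks, and no other of the 1708 genes with shared peaks had more than 5. C3 was named after its values were seen. In replicate 1 the median fold was 4.24 for peaks of genes with 1 peak and 2.28 for peaks of genes with 5 or more. In replicate 2 these medians were 4.37 and 3.29. The SLC7A5 medians lay below those of both classes.

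The genes most like SLC7A5 were taken from the 27 genes with at least 4 peaks in each list, by the summed difference in peaks of replicate 1, peaks of replicate 2 and shared peaks. COL27A1, a fibrillar collagen, was nearest with 6 and 7 peaks, 5 of them shared. MTSS2, an actin-binding membrane-bending protein listed under its older name MTSS1L, and PRRC2A each had 6 and 6 with 5 shared. COL18A1, the collagen that yields endostatin, had 5 and 6 with 5 shared, and KDM6B, a histone H3K27 demethylase, had 5 and 7 with 4 shared. Median folds in replicates 1 and 2 were 1.60 and 1.93 for COL18A1, close to SLC7A5, and 3.82 and 5.75 for COL27A1. A 5' end peak was present in both lists for MTSS2 and PRRC2A, and in neither list for COL27A1, COL18A1 and KDM6B. The share of the union of peak bases covered in both lists was 68.3% in COL18A1 and 63.2% in MTSS2, against 66.2% in SLC7A5, and 30.6% in KDM6B. Likeness here is in peak counts only.

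Among 41 amino acid transporter genes, 11 had a peak in either list and 8 in both, which was 72.7% of the 11. Over all genes with a peak, 51.7% had one in both lists. SLC7A5, which was chosen by its peaks, is 1 of the 8 and is counted in this share. The median fold over the list's peaks, SLC7A5 included, was 1.95 in replicate 1 and 2.67 in replicate 2. SLC7A5 itself gave 7 of the 19 peaks in replicate 1 and 7 of the 22 in replicate 2, so these medians are partly its own. The other 30 had no peak, and whether they were expressed was not measured in these lists. SLC3A2, the heavy chain partner of LAT1, had 1 peak in each list, with folds of 1.95 and 2.12. These folds lay within the range of the SLC7A5 folds in each list, and the -log10 p was 20.0 in replicate 1 and 22.8 in replicate 2. SLC1A5, the glutamine transporter ASCT2, had 3 and 4 peaks, the next highest number in this list, with folds from 1.67 to 3.74 in replicate 1 and from 1.40 to 4.35 in replicate 2. It also combined peaks near both ends, at midpoints 233 nt from the 5' end and 569 nt from the 3' end in replicate 1. Its peak nearest the 5' end had folds of 1.67 and 1.54 with a -log10 p of 33.2 and 24.4. The -log10 p of its other peaks ran from 7.72 to 24.2.

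Other transporters carried fewer peaks. The -log10 p of SLC7A11 peaks ran from 3.22 to 5.24 and that of SLC38A10 peaks from 5.2 to 8.32. The SLC7A5 medians were 8.68 in replicate 1 and 20.5 in replicate 2. The SLC7A1 peaks lay above these medians, with a -log10 p of 35.2 in replicate 1 and 25.2 in replicate 2. The SLC38A5 peaks had 10.9 and 18.0. SLC7A1 had 1 peak in each list, starting at its 5' end, with folds of 5.56 and 5.57. In replicate 1 this peak had 2 blocks and spanned 29553803 to 29595688, and in replicate 2 it was 1 block from 29595418 to 29595688. SLC7A11, the cystine and glutamate exchanger xCT, which also pairs with SLC3A2, had folds of 4.45 and 5.56 in replicate 1 and 4.84 in replicate 2, and none of its peaks lay at the 5' end. SLC38A10 had folds of 2.23 and 4.36 in replicate 1 and 2.66 and 3.61 in replicate 2. SLC38A5, a glutamine transporter of system N, had 2.70 and 3.24. SLC38A2, named after its values were seen, had folds of 1.11 in replicate 1 and 1.61 in replicate 2 at peaks that were not shared, and the first lies below every fold of SLC7A5. Every fold of SLC7A1 and SLC7A11 was higher than every fold of SLC7A5. SLC6A9 and SLC16A10 had peaks in replicate 2 alone and SLC6A14 in replicate 1 alone, and these 3 were named after their values were seen.

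**Figure D4:**
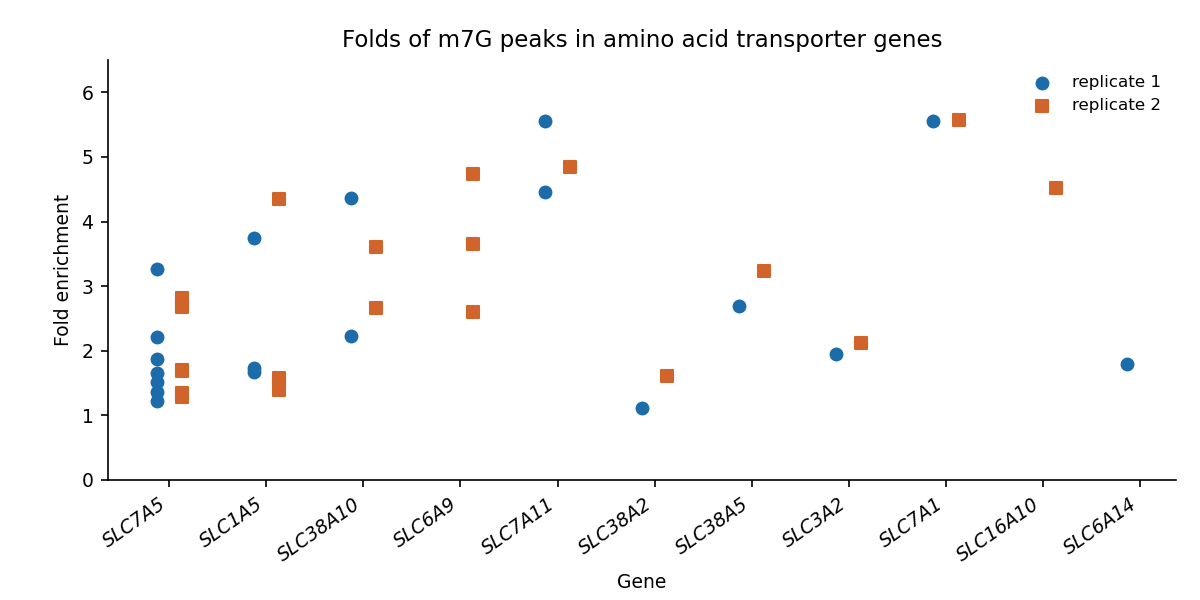
Fold enrichment of every peak in the 11 amino acid transporter genes with a peak, in replicate 1 (blue circles) and replicate 2 (orange squares), ordered by number of peaks. SLC7A5 has the most peaks, 7 in each list, and its highest fold, 3.26, lies below the folds of SLC7A1 and SLC7A11.

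Of 40 genes of mTORC1 and its amino acid sensors, 14 had a peak in either list and 10 in both (71.4% of the 14, against 51.7% of all genes with a peak). The median fold in replicates 1 and 2 was 1.66 and 1.71 in SLC7A5, and 3.71 and 3.87 over all peaks. Over the peaks of the mTORC1 genes it was 3.71 and 3.80, close to that of all peaks. Among these genes, the Rag GTPase gene RRAGC had the highest folds, 19.8 and 11.4, from 1 peak in each list. WDR59 of the GATOR2 complex had 8.35 and 6.33, and NPRL3 of GATOR1 had 7.42 and 5.33. The kinase gene MTOR had folds of 4.30 and 3.80 at peaks that were not shared. RHEB, the GTPase that activates mTORC1, had 3.13 and 2.60. CASTOR2, a paralogue of the arginine sensor, had 3 peaks in each list, of which 1 was shared, with folds of 3.96 and 4.68. Its highest fold in replicate 1, 10.4, was at another site.

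Of 26 genes of the amino acid response, 16 had a peak in either list and 12 in both (51.7% of all genes with a peak had one in both), including 5 transporters counted above. The median fold over the peaks of this list was 2.34 in replicate 1 and 2.0 in replicate 2, nearer to SLC7A5. The lipoprotein receptor gene VLDLR had folds of 6.31 and 8.43, and the transcription factor gene CEBPB had highest folds of 4.30 and 8.53. STC2, which encodes a secreted glycoprotein, had 2 peaks in each list with highest folds of 2.91 and 5.37. The pseudogenes SLC7A5P1 and SLC7A5P2, on the same chromosome, held 0 peaks in either list. Reads from them cannot be told apart from SLC7A5 in these lists where the sequences are alike.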

How the data were processed

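The data were the authors' 2 peak lists, 1 per m7G IP sample. Per the submitters' processing notes, STAR and the build GRCh38 were named without a role; the caller is not given in the sources used here, nor are its filters. Per the file headers, each deposited peak has a p-value, a log10 p and log10 FDR (used as scores), a fold ratio, limits and blocks; the authors' p-values were not recomputed, and the weakest -log10 FDR was 1.32 in both lists. The libraries behind the fold are not named. Starts are printed from 1.

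SLC7A5 entries were taken by name. Partners were matched within gene and strand by blocks, one to one for shared peaks. The code of the overlap count was run on simulated data (2469 peaks), where 400 of 400 planted partners at 50% were found. Such a run checks the code on planted partners only. It gives no evidence on the matching of spliced peaks or of several peaks in the same gene, as in SLC7A5. Gene spans came from a RefSeq table (GRCh38.p14), and 162 file names were read as their current symbol. Named genes are SLC7A5, SLC3A2, up to 6 per list with peaks in both by the lower of their 2 highest folds, and the 5 most like SLC7A5. The members and lists were chosen with earlier results of these data known. One gene of the marker list is not reported here. No test was run. Alternatives were other overlaps, the 50% of peaks with the smallest p, shared peaks and each replicate alone. Python 3.11.15, numpy 2.4.6, pandas 2.3.3 and matplotlib 3.10.9 were used.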

Additional observations from a re-analysis of the deposited data

How the results depend on the processing

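With 80% reciprocal overlap, 3 SLC7A5 peaks of replicate 1 and 3 of replicate 2 had a partner, against 6 and 6 at 50% of the shorter peak; fewer pairs pass by construction. The mean of the 2 median folds was 1.69. It was 1.98 when each list was reduced to its 50% of peaks with the smallest p, and 1.98 for peaks with a partner, since the peaks dropped had folds below the gene's own median. Without one replicate, the peaks per list stayed at 7 and the median fold ranged from 1.66 to 1.71. The other 12 of the 16 alternatives stayed within 1.5 times of a count or 1 SD of a fold. For some of them this was fixed in advance. With 2 replicates, leaving 1 out always gives a median fold within 1 SD of the mean. Asking for only 1 shared base could raise 6 partners among 7 peaks to 7 at most. These alternatives therefore say nothing about stability. No paired analysis was possible because input samples had no peak list here. A single replicate gives no value for partners or for bases covered in both lists. Depth, which is unknown here, limits the peaks that could be called.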
